A study of Mus musculus with 24 samples.

Results

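Phospholipid scramblases let lipids pass between the leaflets of a membrane, which brings phosphatidylserine to the cell surface when they are active. ATP-driven flippases return phosphatidylserine to the inner leaflet, and exposed phosphatidylserine is bound by proteins such as annexin A5 and by receptors of engulfing cells. Xkr8 is a scramblase that is switched on when caspases cleave it during apoptosis, Ano6 (TMEM16F) is a calcium-gated scramblase best known from platelets, and the Plscr proteins are a family of palmitoylated membrane proteins, of which Plscr1 is also an interferon-induced gene. The genes described here are Plscr1, Plscr2, Plscr3, Plscr4, Xkr8 and Ano6, and the members analysed were the rows of the table of normalized read counts that carry these symbols. A row was found for 5 of the 6 names among 18762 genes, and all 5 reached a mean of 10 normalized read counts, as 12354 genes did. Ano6 was not analysed here. The family was proposed with the old-to-young difference of Plscr2 already known, so Plscr2 was chosen on that contrast, and its age difference is given below as a description with no test.

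The RNA came from LSK-SLAM cells of the bone marrow, a gate for lineage-negative, Sca-1-positive, c-Kit-positive cells with CD150 and without CD48 that is rich in blood stem cells. All mice were wild-type C57BL/6, and the labels give an age of 4 to 5 months for 5 young mice and 20 to 22 months for 7 old mice, whereas the paper states other, older ages for these samples. About 15000 cells were sorted per mouse, ribosomal RNA was removed and 300 pg of RNA entered each library, with 2 sequencing lanes per library counted as 1 sample. The sample names end in the letter A or B, whose meaning the labels do not give. Letter A stood on 2 young and 4 old mice and letter B on 3 young and 3 old mice. Reads counted on genes, as recovered from the normalized values, numbered 2.05 to 5.12 M in young and 0.861 to 5.00 M in old mice. Every letter A mouse had fewer of these reads than every letter B mouse, with at most 3.11 M against at least 3.23 M. Age differences are therefore also given within each letter.

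The sort markers were present in every mouse, with Kit between 546 and 2049, Ly6a between 35.5 and 193 and Slamf1 between 42.6 and 154 normalized read counts, while Cd48 stayed between 0.583 and 11.8. Of the lists of markers of other cell types, the progenitor list (Cd34, Flt3, Dntt) did not overlap between the ages, with a summed level of 166 to 294 in young and 98.4 to 150 in old mice. Within that list, Cd34 averaged 182 in young and 84.5 in old mice (limma, adjusted p = 0.0544). Flt3 averaged 54.1 and 30.8 (limma, adjusted p = 0.780), while Dntt, which was not tested, went the other way at 7.42 and 8.78. How often all genes are lower in every old mouse was not counted. The summed megakaryocyte and platelet list was 374 to 599 in young and 412 to 919 in old mice. The granulocyte and monocyte list was 223 to 435 in young and 161 to 1692 in old mice, the erythroid list 94.2 to 214 and 61.5 to 638, and the endothelial list 196 to 242 and 183 to 283. B cell markers summed to 32.6 to 112 and 19.6 to 141 and T cell markers to 16.3 to 73.1 and 8.94 to 118, with Cd3e at 0 in at least 1 mouse. The stem cell list was 1613 to 2853 in young and 902 to 2959 in old mice. No tested gene of these lists was called between the ages, and the part of any of these cell types in the values below was not tested. In bulk RNA, fewer cells that express a gene and less RNA per cell cannot be told apart.

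Plscr1, Plscr2 and Plscr4 lie within one stretch of mouse chromosome 9 (GRCm38, GENCODE vM21), all on the plus strand. Plscr1 (ENSMUSG00000032369) spans chr9:92249750-92272278, Plscr2 (ENSMUSG00000032372) chr9:92275602-92297752 and Plscr4 (ENSMUSG00000032377) chr9:92457373-92492456. Plscr3 (ENSMUSG00000019461) lies at chr11:69846376-69852058 on the plus strand, and Xkr8 (ENSMUSG00000037752) at chr4:132724897-132732546 on the minus strand. The proteins encoded by the longest coding transcripts have 328 residues for Plscr1, 307 for Plscr2, 296 for Plscr3, 326 for Plscr4 and 401 for Xkr8.

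Plscr1 and Plscr2 are the closest pair, with 760 of 921 aligned coding bases identical (82.5%), against 54.5% to 61.8% for the other Plscr pairs. The most alike ungapped 60-base coding stretch found within a single exon of each gene is shown. It bears on how well a short read can be given to one gene or the other. Stretches across exon borders were not compared. Capitals mark the positions at which they differ, with 58 of 60 bases identical. The Plscr2 stretch lies in exon 5 of 8 at chr9:92290783-92290842 and the Plscr1 stretch in exon 6 of 9 at chr9:92266535-92266594, both on the plus strand of GRCm38.
Plscr2: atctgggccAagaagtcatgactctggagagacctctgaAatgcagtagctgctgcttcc
Plscr1: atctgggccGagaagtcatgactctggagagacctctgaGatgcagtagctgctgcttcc
Despite this likeness, Plscr1 shared no word of 50 bases with any other member. Of the 50-base words of each gene's transcripts, 12.3% of those of Plscr1 also occurred in other transcripts, most of them in the pseudogene Gm5530, so its count is uncertain to that extent. The share was 1.99% for Plscr2, 0.804% for Xkr8 and 0 for Plscr4. It was 24.2% for Plscr3, whose exons share 891 bases, 28.3% of its exon length, with the oppositely oriented kinase gene Tnk1. Whether the counting used strand was not given in the sources used here, so reads in that overlap cannot be told apart. Tnk1 itself had 7.06 to 40.3 normalized read counts.

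The promoters of Plscr1, Plscr3 and Plscr4 were taken from RefSeq (GRCm38.p6), as 250 bases before to 50 after the start. They were searched on both strands for the core of the interferon-stimulated response element, GAAA followed by 2 bases of any kind and GAAA again, which 3.44% of 32851 promoters hold, and for the STAT site TTCNNNGAA, which 8.30% hold. Of these promoters, that of Plscr1 held a STAT-type match, whose first base lies at position -90 from the start, and no promoter of the 3 genes held the response element. The Plscr1 promoter, at chr9:92249944-92250243 on the plus strand, is shown because Plscr1 is the member known as an interferon-induced gene. A list of such genes is described below. Capitals mark the match.
Plscr1 promoter: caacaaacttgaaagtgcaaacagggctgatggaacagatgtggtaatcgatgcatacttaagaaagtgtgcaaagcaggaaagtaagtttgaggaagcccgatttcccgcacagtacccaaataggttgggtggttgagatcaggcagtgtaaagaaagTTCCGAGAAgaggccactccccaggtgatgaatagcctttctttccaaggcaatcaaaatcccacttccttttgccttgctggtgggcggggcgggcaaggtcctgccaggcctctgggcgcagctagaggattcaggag

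The age comparison used limma on log2(normalized read count + 1) across all genes, so fold changes of low genes are understated, and a gene was called at an adjusted p under 0.05. Of all genes tested, 13 were called (0.105%). Of the 4 members other than Plscr2, none was called. Plscr1 and Plscr4 had an unadjusted p under 0.05 with a higher mean in old mice, and Plscr3 and Xkr8 did not; of all genes, 3.95% had an unadjusted p under 0.05 in either direction. The values by mouse show where these differences lie.

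**Figure D1:**
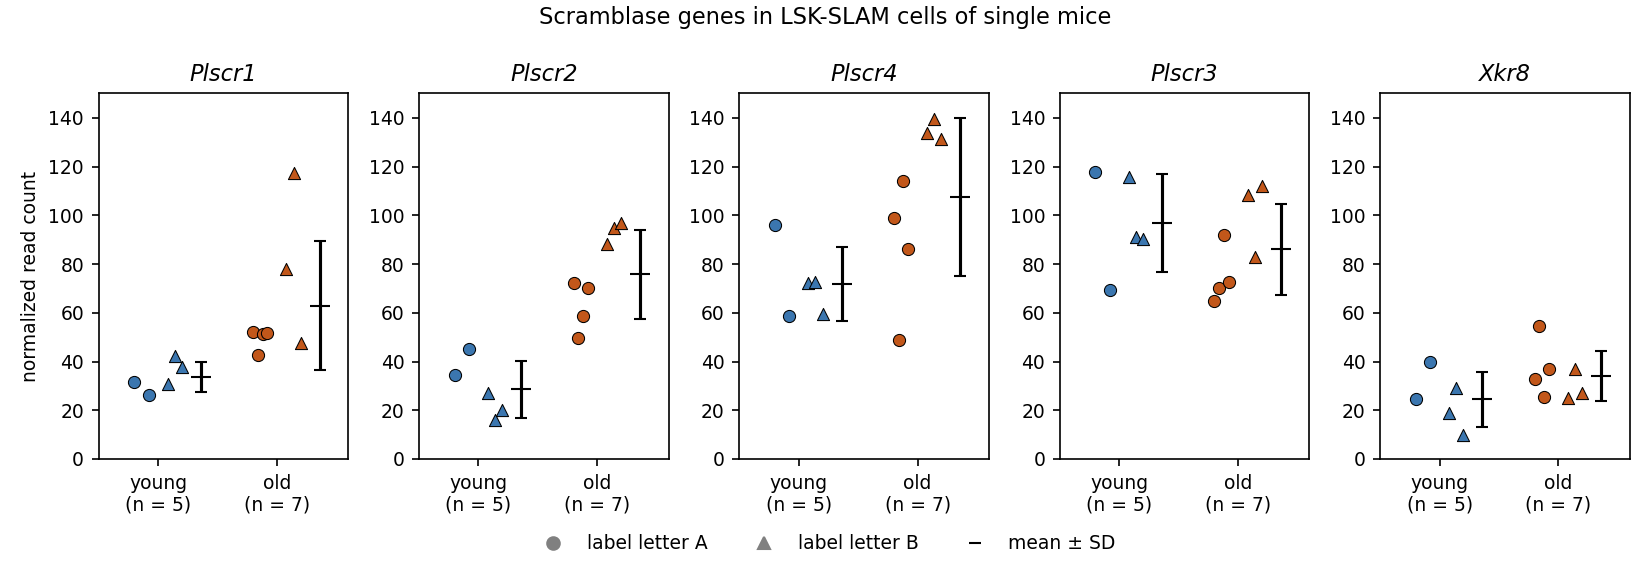
Normalized read counts (vertical axis) of the 5 scramblase genes in each young and old mouse, with circles for letter A, triangles for letter B and bars for the mean ± SD of each age. All 7 old mice lie above the highest young mouse for Plscr2 and, by a narrow gap, for Plscr1, whereas the ages overlap for Plscr4, Plscr3 and Xkr8.

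Plscr2, a close paralog of Plscr1 about whose own activity less is known, had 34.5 and 45.2 normalized read counts in the young mice of letter A and 27.1, 15.9 and 20.3 in those of letter B. In old mice it had 72.3, 49.7, 58.5 and 70.1 under letter A and 88.1, 94.7 and 96.8 under letter B. The ages did not overlap, as the highest young mouse stood at 45.2 and the lowest old mouse at 49.7, and these values rest on 57 to 498 reads per mouse. Young mice averaged 28.6 ± 11.7 (SD, n = 5) and old mice 75.7 ± 18.1 (SD, n = 7), a ratio of 2.65 and a log2 difference of 1.43. The order of the letters was opposite at the 2 ages: both young mice of letter A were above all young mice of letter B, and all old mice of letter A were below all old mice of letter B. The old-to-young ratio was thus 1.57 within letter A and 4.42 within letter B.

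Whether the age difference differed between the letters was tested as an interaction across all genes, in which 2 genes were called (0.0162%). The age difference of Plscr2 was larger by 1.49 on the log2 scale in letter B. Because this uses the old and young values on which Plscr2 was chosen, it is given as a description with no test. None of the 4 members other than Plscr2 was called. The interaction was 0.83 for Plscr4 (SE 0.41, 95% interval -0.02 to 1.68) and 0.51 or less for Plscr1, Plscr3 and Xkr8. Over 20 alternatives the estimate for Plscr2 ran from 1.30 to 1.68.

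Plscr1, the founding member of the family, had 31.4 and 26.4 normalized read counts in young mice of letter A and 30.8, 42.2 and 37.6 in those of letter B. Old mice of letter A had 52, 42.6, 51.5 and 51.7, and those of letter B had 77.9, 117.5 and 47.6. The ages did not overlap, but the gap was narrow, from 42.2 in the highest young to 42.6 in the lowest old mouse, and the top of the old range came from old mice 2 and 3. Of all genes tested, 36 (0.291%) were higher in every old mouse than in every young mouse, and Plscr1 was one of them. Young mice averaged 33.7 ± 6.20 (SD, n = 5) and old mice 63.0 ± 26.5 (SD, n = 7), 1.87 times the young mean. The log2 difference was 0.82 (SE 0.25, 95% interval 0.30 to 1.33; limma, unadjusted p = 0.00388, adjusted p = 0.608), so Plscr1 was not called. With the letter as a covariate, where 37 genes were called (0.299%), the log2 difference was 0.90 and the adjusted p 0.0865. Within the letters it was 0.75 in A and 1.03 in B (limma, adjusted p = 0.0731 in letter B), and its adjusted p lay between 0.0731 and 1.0 over 25 alternatives. Without old mouse 3 it was 0.65, the lowest value on leaving out a mouse.

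The ratio of Plscr2 to Plscr1 within a mouse averaged 0.921 ± 0.524 in the 5 young mice (SD) and 1.29 ± 0.380 in the 7 old mice (SD), with ranges of 0.377 to 1.71 and 0.806 to 2.03 that overlap. In young mice it was 1.40 on average under letter A and 0.598 under letter B, whereas in old mice it was 1.26 and 1.32. In young mice Plscr1 averaged 36.9 under letter B and 28.9 under letter A, so that the letters stood in the opposite order to Plscr2.

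Plscr4, a less studied member of the family, had 96.1 and 58.6 normalized read counts in young mice of letter A and 72.4, 72.6 and 59.6 in those of letter B. Old mice had 99, 48.9, 114 and 86.1 under letter A and 134, 139 and 131 under letter B. The ages overlapped, with 5 of 7 old mice above the highest young mouse and old mouse 5 below all young mice. Young mice averaged 71.9 ± 15.1 (SD, n = 5) and old mice 107 ± 32.3 (SD, n = 7), a ratio of 1.495. The log2 difference over all mice was 0.53 (SE 0.24, 95% interval 0.02 to 1.03; limma, unadjusted p = 0.0425, adjusted p = 1.0).

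Within letter B the ages did not overlap for Plscr4, and its log2 difference was 0.98 (SE 0.19, 95% interval 0.58 to 1.37; limma, adjusted p = 0.00645), so that it was called, while Plscr1, Plscr3 and Xkr8 were not. Of all genes, 100 were called within letter B (0.809%), and 6.72% were higher in all 3 old than in all 3 young mice of that letter. Within letter A the difference was 0.14 (95% interval -0.62 to 0.91), but the difference between the letters was itself not called, as given above. The adjusted p of Plscr4 lay between 0.00645 and 1.0 over 25 alternatives.

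Plscr3, described as the mitochondrial member of the family, had 118, 69.2, 116, 91.0 and 90.2 normalized read counts in the young mice. Old mice ranged from 64.6 through a median of 82.9 to 112, so that the ages overlapped almost completely. Young mice averaged 96.8 ± 20.3 (SD, n = 5) and old mice 86.1 ± 18.7 (SD, n = 7). The log2 difference was -0.17 (SE 0.19, 95% interval -0.58 to 0.24; limma, adjusted p = 1.0), an interval that leaves out a doubling on this scale but holds moderate changes either way. Within letter B the sign turned, to 0.03.

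Xkr8, the caspase-activated scramblase, had the lowest counts, with 24.6, 39.9, 18.8, 29.0 and 9.69 in young mice and 25.05 through a median of 33.0 to 54.5 in old mice. These rest on 30 to 148 reads per mouse. The ages overlapped, with 1 of 7 old mice, old mouse 5, above the highest young mouse. Young mice averaged 24.4 ± 11.3 (SD, n = 5) and old mice 34.1 ± 10.3 (SD, n = 7), and the log2 difference was 0.55 (SE 0.31, 95% interval -0.11 to 1.21; limma, adjusted p = 1.0). The interval is wide enough to hold both no change and a rise of more than 1 on the log2 scale.

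**Figure D2:**
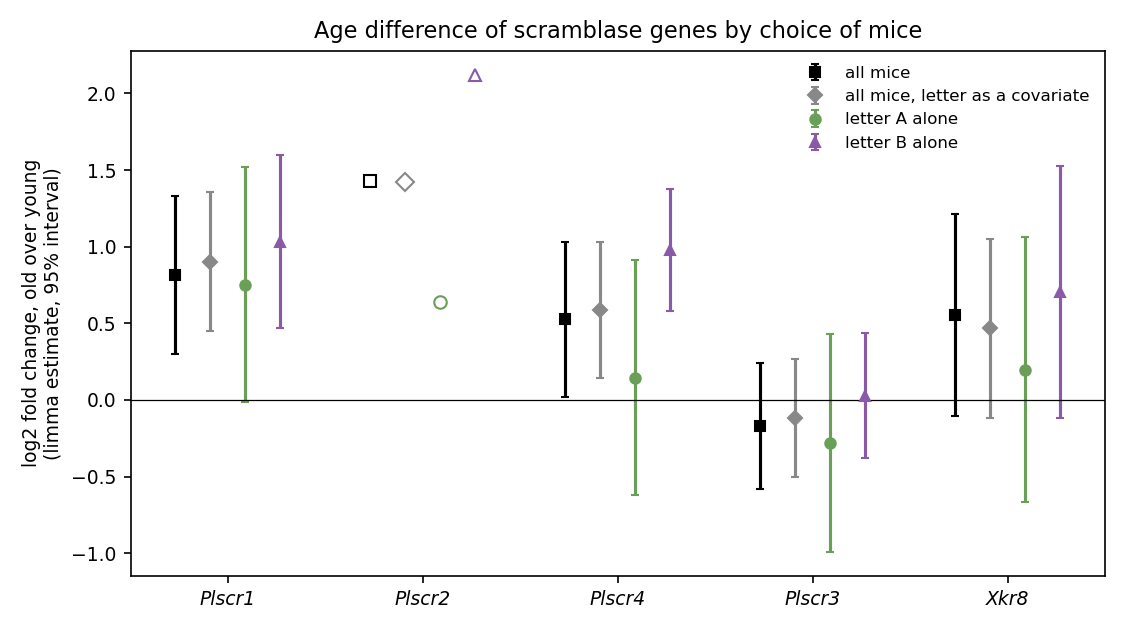
Limma estimates of the log2 fold change of old over young mice (vertical axis) for each scramblase gene, from all mice, from all mice with the letter as a covariate, and from the mice of letter A or B alone, with 95% intervals as bars. Plscr2 is drawn with open symbols and no interval because it was chosen on this contrast. The letter B estimate is above the letter A estimate for each of the 5 genes, Plscr2 included, and for 49.4% of all genes. No interaction of the 4 members other than Plscr2 was called.

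The letters themselves were compared with age as a covariate, a contrast that played no part in the choice of the genes. Of all genes, 4462 were called between letter B and letter A (36.1%), and of the 5 members none was. The log2 difference of B over A was 0.50 for Plscr1 (95% interval 0.05 to 0.95; limma, adjusted p = 0.0733), 0.30 for Plscr3 (adjusted p = 0.200), 0.35 for Plscr4 (adjusted p = 0.202), -0.50 for Xkr8 (adjusted p = 0.159) and -0.03 for Plscr2 (adjusted p = 0.929). The near-zero value of Plscr2 averages the opposite orders of its letters in young and old mice. After rescaling by median ratios, which moved the median letter difference of all genes by 0.29, Plscr1, Plscr3 and Plscr4 were called by limma at adjusted p-values of 0.00782, 0.0261 and 0.0312, and Plscr2 turned to 0.26. In that fit 47.8% of all genes were called, so that 3 of 5 members is near the share of all genes.

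Levels were compared between genes only as normalized read counts per kb of exon. Plscr3 had the highest mean level at 28.8 ± 6.12 (SD, n = 12), followed by Plscr4 at 25.8 ± 8.76, Plscr1 at 20.6 ± 10.2, Plscr2 at 17.6 ± 8.99 and Xkr8 at 6.97 ± 2.64. The median of all genes tested was 8.15, so the Plscr genes stood above it, between the 78.5th and 89.8th percentile, and Xkr8 below it. Most neighbours in this order were not apart beyond their spread. Plscr3 exceeded Plscr4 in 6 of 12 mice, in all 5 young but only 1 of 7 old mice. Plscr4 exceeded Plscr1 in 10 of 12 mice and Plscr1 exceeded Plscr2 in 8 of 12. Plscr2 exceeded Xkr8 in 11 of 12 mice, with a mean log2 ratio of 1.23 ± 0.80 (SD, n = 12). With the length of the longest transcript in place of all exons, the level of Plscr2 became 29.5 and only 2 of 5 members kept their rank.

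**Figure D3:**
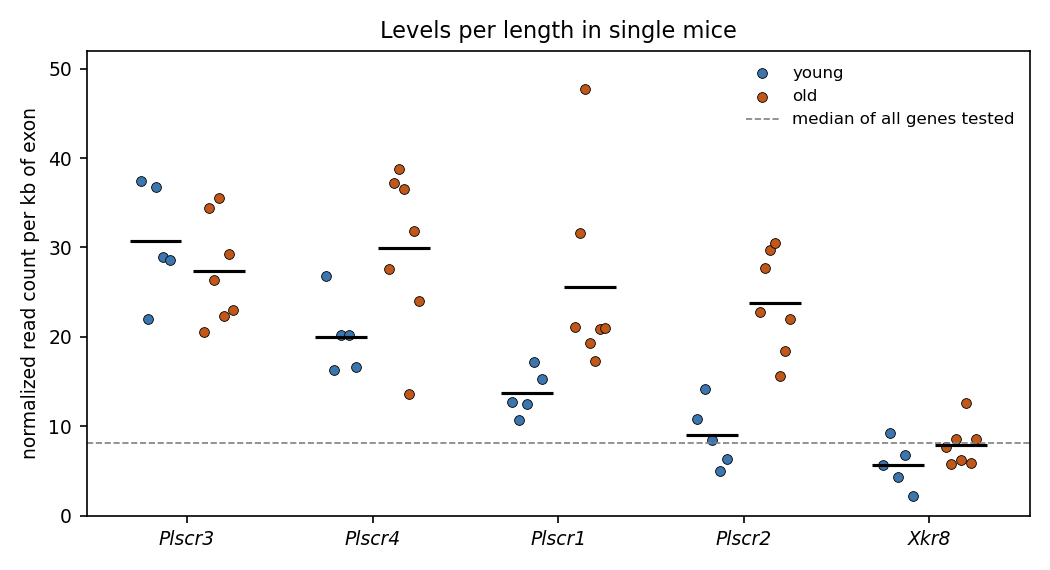
Normalized read counts per kb of exon (vertical axis) for each scramblase gene in single young and old mice, ordered by the mean over all mice, with horizontal lines at the age means and a dashed line at the median of all genes tested. In young mice Plscr3 stands above Plscr4 in all 5 mice, whereas in old mice the means of the 4 Plscr genes lie between 23.8 and 29.9.

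In the chromosome 9 stretch, 6 genes within 500 kb had a row and 4 were tested. Plod2, a collagen lysyl hydroxylase gene beyond Plscr4, averaged 53.5 ± 5.84 in young and 51.6 ± 9.34 in old mice, with a log2 difference of -0.06 (limma, adjusted p = 1.0). Plscr5, a further family member next to Plscr1, had a mean of 6.62 normalized read counts, and 1700057G04Rik had 3.98, so neither was tested.

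The other genes of membrane lipid asymmetry were taken as lists. Of 75 genes in 6 lists, 63 had a row and 56 were tested. None was called between the ages by limma in either direction, against 0.105% of all genes. At an unadjusted p under 0.05 there were 3, among them Rtp4 and Atp10a, against 3.95% of all genes. The count tests of edgeR and DESeq2 called 0 and 1 of the 56, against 18 and 57 of all 12354 genes. Of the 56, 33 had a log2 difference above 0, and the median log2 difference was 0.06 against -0.02 over all genes tested. With the letter as a covariate 24 were above 0, and the medians were -0.03 and -0.05.

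Among other scramblases and further members of the scramblase families, 8 of 16 tested genes had a log2 difference above 0, with a median of 0.01. Vmp1, an endoplasmic reticulum scramblase of autophagy, averaged 399 ± 110 in young and 611 ± 246 in old mice. Its log2 difference was 0.54 over all mice (limma, adjusted p = 1.0). Within letter B it was 0.83 and was called (limma, adjusted p = 0.0272), as were 0.809% of all genes. Xk, the Xkr family member of the Kell blood group complex, averaged 111 in young and 97.1 in old mice, and Atg9a, the scramblase of autophagosome formation, 36.02 and 32.2.

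Of the partners of Xkr8 and the caspases that cut it, 1 of 4 had a log2 difference above 0 and the median was -0.19. Bsg (basigin) and Nptn (neuroplastin), the chaperones of Xkr8, averaged 314 and 78.3 in young and 305 and 99.5 in old mice.

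Of the flippases and their subunits, 10 of 13 had a log2 difference above 0, with a median of 0.12 and none called. Atp8a1, a flippase of phosphatidylserine, averaged 361.5 ± 80.9 in young and 438 ± 167 in old mice, and Atp11b averaged 347 ± 88.7 and 330 ± 91.4. Atp10a, a flippase of phosphatidylcholine, averaged 124 ± 36.9 and 181 ± 52.1, with a log2 difference of 0.55 (limma, unadjusted p = 0.0335, adjusted p = 1.0). Of the phosphatidylserine synthesis genes only Ptdss2 was tested, at 22.0 in young and 21.1 in old mice. In the recognition list 9 of 10 genes had a difference above 0, but the median was 0.07 and none was called, and with the letter as a covariate 4 of 10 were above 0 and the median was -0.02. Calr, calreticulin, averaged 444 and 466.3, Anxa5, annexin A5, 241 and 287, and Mfge8, a bridging protein, 53.7 and 55.7.

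Of the interferon-induced genes, 5 of 12 had a log2 difference above 0 and the median was -0.07. Rtp4, a chaperone of receptors, averaged 54.3 ± 10.2 in young and 111 ± 41.0 in old mice, with ranges of 43.2 to 65.3 and 50.5 to 176. Its log2 difference was 0.95 over all mice (limma, adjusted p = 0.353), and with the letter as a covariate it was 1.02 and was called (limma, adjusted p = 0.0369). Rtp4 was the only gene of the 6 lists called in that fit, where 0.299% of all genes were called. Ifi44 averaged 131 and 126 and Oasl2 128 and 125 in young and old mice, both being named for their level after values were known.

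**Figure D4:**
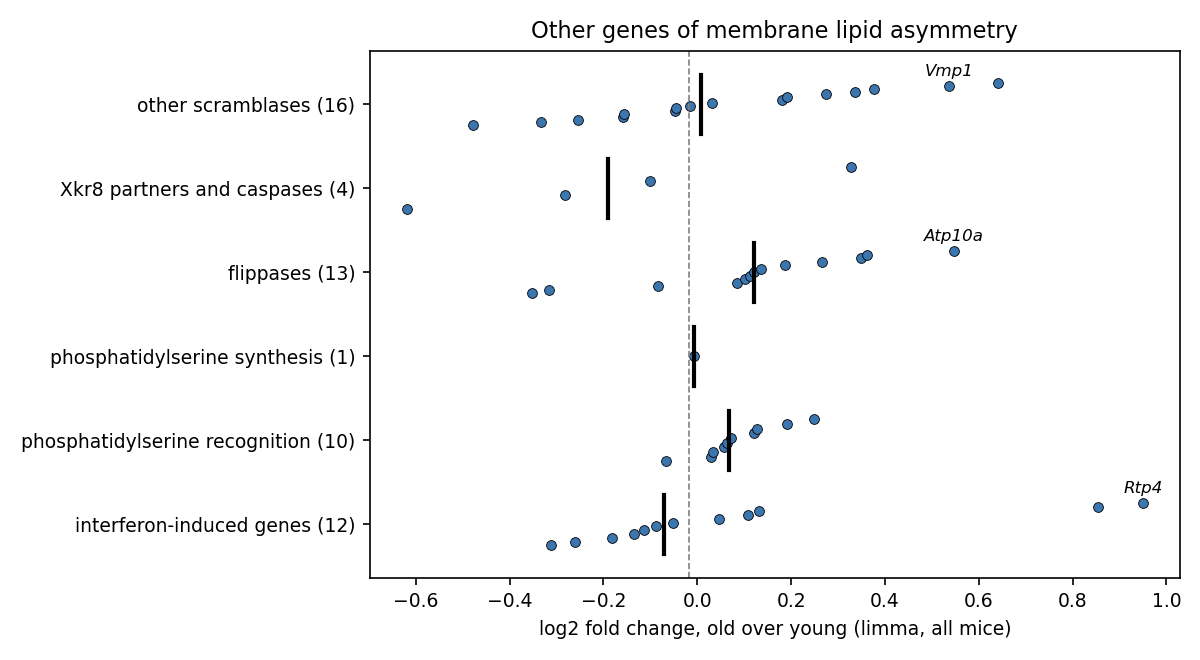
Log2 fold change of old over young mice (horizontal axis, limma, all mice) for each tested gene of the 6 lists, with the number tested in parentheses, black bars at the list medians and a dashed line at the median of all genes. Rtp4 lies farthest to the right at 0.95, and no point was called.

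Within the groups of 1 age and 1 letter, members did not move closely together from mouse to mouse. The Pearson correlation of log2 values over 12 mice, after the mean of each age and letter group was subtracted, was -0.20 between Plscr1 and Plscr2, 0.17 between Plscr2 and Plscr4, 0.31 between Plscr1 and Plscr4, 0.51 between Plscr3 and Plscr4, and -0.45 and -0.44 between Xkr8 and the latter pair. The points share library and depth, and the values are descriptions. By the same measure the genes most like Plscr2 were Pggt1b (0.95), Tmem154 (0.93), Zdhhc15 (0.91), Slc27a4 (0.90) and Adat2 (0.89). Those most like Plscr1 were Ier3ip1 (0.95), Morc4 (0.93), Zic5 (0.92), Ptgr1 (0.92) and Orc5 (0.92). Plscr4 was closest to Tbl1xr1 (0.99), Eif4g2, Dhx33, Usp7 and Sos2 (each 0.98), Plscr3 to Npepps, Celf1, Gnl2, Hip1r and Tcirg1 (0.91 to 0.94), and Xkr8 to Cwc27, Ctif, Tead2, Tmem150b and Fam83e (0.91 to 0.94). No list of these neighbours held another scramblase gene.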

How the data were processed

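The submitters' processing notes name FastQC 0.11.8, STAR 2.5.4b, edgeR 3.24.3 and the build mm10, without roles. The counting tool and annotation are not given in the sources used here. The deposited values used are a signal, normalized read counts with 1 column per mouse. Whole reads were recovered from them (100% of values within 0.01 of a whole number). A deposited table of the authors' own comparison (fold changes, p-values) was not used.

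Members, lists and tests were chosen with earlier results of these data known. Genes with a mean of at least 10 were tested with limma 3.58.1 (variance trend, two-sided, Benjamini-Hochberg over 12354 genes) on log2(value + 1). edgeR 4.0.16 and DESeq2 1.42.0 on recovered reads, other pseudocounts, filters and scalings, the letter, a replicate block and leaving out each mouse were alternatives. The block's comparison fit was chosen after seeing the data. Named list genes were those called in either age fit, otherwise the 3 highest by mean. Some genes of these lists are counted but not reported here by name. Likeness named 5 genes a member. Exons came from GENCODE vM21. Procedures were tested on simulated data.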

Additional observations from a re-analysis of the deposited data

Results flagged for a closer look

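Of 10 groups tested (5 scramblase genes at 2 ages) for a sample standing apart by Dixon's criterion, 1 held such a sample. Xkr8 in old mouse 5 had 54.5 normalized read counts, and its gap to the next old mouse was 0.60 of the range of the old mice. Chance marks about 1 in 20 such groups. Old mouse 5 carried letter A, and it was among the mice with the fewest reads counted on genes, at 1.13 M.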

How the results depend on the processing

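The direction of the age difference of Plscr1, Plscr4 and Xkr8 held in all 25 alternatives, which reuse the same mice. That of Plscr2 held too, but Plscr2 was chosen on this contrast, so this is only a description. Plscr3 turned from -0.17 to 0.027 within letter B. None of the 4 members other than Plscr2 was called in the main comparison, against 1 within letter B (Plscr4). Between the letters, 3 members were called after rescaling by median ratios, 1 by edgeR (Plscr1), and 0 to 1 on leaving out a mouse (Plscr4 without young mouse 1, Plscr1 without old mouse 4). Of all genes, 47.8%, 30.8% and 23.8% to 40.5% were called between the letters in these fits. The letter difference of Plscr2 turned from -0.03 to 0.26 with median ratios and ran from -0.14 to 0.18 on leaving out a mouse. The interaction ran from -0.031 to 0.61 for Plscr1 (negative without old mouse 3) and from -0.072 to 0.69 for Plscr3 (negative without young mouse 1). Of the 56 tested genes of the lists, 1 was called by DESeq2, 1 with the letter as a covariate and 3 within letter B. Of all genes, 57 of 12354 were called by DESeq2, 0.299% with the letter as a covariate and 0.809% within letter B. Leaving out a mouse gave 0 to 1 list genes called (Rtp4 without old mouse 5). Ranks per length held for 2 of 5 members with the longest transcript. The cause of these changes was not tested. Genes called between the ages numbered 13 in the main comparison, 2 without trend, 5 with median ratios, 18 by edgeR, 57 by DESeq2, 37 with the letter, 1 within letter A, 100 within letter B and 3 to 32 on leaving out a mouse.

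Same-numbered young and old mice are different animals. Within a number, the correlation of deviations was 0.180, 0.402 and 0.615 for replicates 1, 3 and 4, whose mice share a letter. It was -0.559 and 0.0437 for replicates 2 and 5, whose mice carry different letters. Because these values follow the letters, they cannot show whether the numbers pair the mice. Of the young mice, 2 of 5 correlated best with their own number. With the replicate block over replicates 1 to 5, 0 of the 4 members were called. Plscr1 had a log2 difference of 0.90 in these mice with and without the block, a match that complete pairs fix in advance. The block called 19 genes, against 8 without it.

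Depth limits Xkr8 most, at 30 to 148 reads per mouse, and the fewest mice (2 young) limit the values within letter A.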
